A study of Mus musculus with 16 samples.

Results

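The collagen chain genes are the genes that code for the polypeptide chains of the collagens, and they were taken as every row whose symbol has the form Col, a number, a, and a number. The rule gave 44 of the 27179 rows in the table. By the structure of the proteins they were grouped as 11 fibrillar chains, 6 basement membrane chains, 9 fibril-associated chains and 18 others. They were followed across 4 sub-populations of Pdgfrb-expressing cells that were sorted fresh, by flow cytometry, out of epididymal white adipose tissue of mice (strain C57BL/6, postnatal day 7). The sub-populations are mesothelial-like cells (MLCs), smooth muscle cells (SMCs), adipocyte precursor cells (APCs) and fibro-inflammatory progenitors (FIPs), with 4 libraries each and 16 in all. All come from the same strain, tissue and age, and all were gated on Pdgfrb, the gene of a growth factor receptor found on mural cells and fat progenitors.

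A collagen is built of chains wound into a triple helix, and the chains may come from the same gene or from different genes. Fibrillar collagens (types I, III and V in most soft tissues) assemble into the fibres that give tissue its strength, type IV collagen forms the net of basement membranes, fibril-associated collagens sit on the fibre surface, and type VI collagen forms beaded filaments around cells. In white fat, stromal progenitors are a main source of this matrix and each fat cell is wrapped in a basement membrane, while the mesothelium that covers the fat pad rests on a basement membrane of its own.

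The recovered reads per library ranged from 9.20 to 27.5 M, with a median of 21.6 M. The labels do not say whether the 4 libraries of a population are from different animals, so the p-values reflect the spread among libraries, and that spread may be technical. Markers bore out the MLC label: a summed list of 10 mesothelial genes ranged from 131019 to 135074 normalized counts in the MLC libraries, 10558 to 16132 in SMCs, 4081 to 4621 in APCs and 3171 to 3735 in FIPs. The SMC label was borne out by mural markers only in part. A sum of 8 contractile genes was 9302 to 10149 in the MLC libraries, 11109 to 16079 in SMCs, 5339 to 8093 in APCs and 4854 to 5509 in FIPs. Its defining member Myh11 averaged 1288 in MLCs and 1262 in SMCs. A sum of 6 pericyte genes was 1424 to 1615 in the MLC libraries, 4225 to 4971 in SMCs, 5134 to 6573 in APCs and 2667 to 2886 in FIPs. It was highest in APCs. Pdgfra, a fibroblast and progenitor marker, averaged 471 ± 44.8 in the MLC libraries, 23838 ± 1968 in SMCs, 20555 ± 248 in APCs and 22966 ± 975 in FIPs (n = 4 each, SD). It is from a list of 7 fibroblast and progenitor genes, which includes the chain gene Col15a1. Together the 7 summed to 56127 to 58681 in the MLC libraries and 152849 to 180320 in SMCs. Their sum was 239394 to 278717 in APCs, the highest, and 193288 to 225889 in FIPs. The lead of APCs in this sum rests on Col15a1, which is itself one of the chain genes described below. A sum of 7 endothelial genes was 4782 to 5677 in the MLC libraries, 3659 to 4472 in SMCs, 1062 to 1502 in APCs and 7845 to 8711 in FIPs. Tek led it in FIPs (mean 7827) and Kdr and Esam in MLCs (2485 and 2444). Pecam1 averaged at most 102. A sum of 6 macrophage genes was 2348 to 2896 in the MLC libraries, 817 to 976 in SMCs, 505 to 1258 in APCs and 484 to 814 in FIPs. Csf1r led it in MLCs (mean 2210.5). Ptprc averaged at most 5.71. Epithelial genes summed to 513 to 819.6 in the MLC libraries, 16.8 to 45.9 in SMCs, 0.715 to 8.65 in APCs and 8.59 to 45.5 in FIPs. APCs replicate 4 stood apart from the other APC libraries in 4 chain genes described below, and held the highest contractile sum of its population. In bulk RNA, fewer cells of a type and less RNA per cell cannot be told apart, and the part of any admixed cell type in the results below was not tested.

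The type IV genes lie head to head in pairs, and the 3 pairs had 3 different patterns across the populations. The stretches between or across their starts are shown, with letters from RefSeq's GRCm38.p6 tables and starts as GENCODE M21 lists them unless RefSeq is named, because the genes of a pair are read outwards from them. RefSeq's Col4a1 start lies 63 bases upstream of GENCODE's, and the RefSeq spans of Col4a1 and Col4a2 share 85 bases. In GENCODE, Col4a1 and Col4a2 start on opposite strands of chromosome 8 and their first exons share 22 bases, which are in capitals (chr8:11312801-11312830, plus strand). These capitals mark the shared bases, and a GC box (GGGCGG) lies within them.
Col4a1 and Col4a2: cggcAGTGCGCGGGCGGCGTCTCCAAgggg
GENCODE's starts of Col4a3 and Col4a4 on chromosome 1 have 71 bases between them (chr1:82586850-82586920, minus strand, read towards Col4a4). RefSeq's Col4a4 span starts farther upstream and overlaps that of Col4a3 by 114 bases.
Col4a3 and Col4a4: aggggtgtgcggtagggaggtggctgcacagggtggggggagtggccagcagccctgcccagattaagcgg
GENCODE's starts of Col4a5 and Col4a6 on chromosome X have 1308 bases between them. A stretch at each start is given separately. That of Col4a5 ends before RefSeq's start, 15 bases upstream of GENCODE's. The last 19 bases of that of Col4a6 lie inside RefSeq's gene span. They are shown with a CCAAT box in capitals for Col4a5 (chrX:141475169-141475369, plus strand) and a GC box, GGGCGG on the other strand, in capitals for Col4a6 (chrX:141474077-141474326, minus strand).
Col4a5: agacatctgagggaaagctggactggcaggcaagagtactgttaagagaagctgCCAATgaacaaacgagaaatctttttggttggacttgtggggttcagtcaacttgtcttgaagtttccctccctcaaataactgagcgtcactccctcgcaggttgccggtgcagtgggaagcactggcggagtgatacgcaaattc
Col4a6: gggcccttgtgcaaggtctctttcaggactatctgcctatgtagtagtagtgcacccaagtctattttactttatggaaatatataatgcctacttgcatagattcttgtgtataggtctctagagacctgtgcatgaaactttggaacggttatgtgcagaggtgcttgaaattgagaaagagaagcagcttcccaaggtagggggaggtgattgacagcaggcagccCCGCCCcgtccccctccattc
The Col4a3 and Col4a4 stretch holds no GC box (GGGCGG), no CCAAT box (CCAAT) and no TATA box (TATAAA) on either strand. RefSeq's table has promoter windows of 300 bases for 35 of the 44 genes, 38 windows in all. On either strand the GC box was in 60.5% of them and in 35.7% of all 32851 windows, the CCAAT box was in 34.2% and 37.4%, and the TATA box was in 13.2% and 13.6%. A match in letters is a description and not a site.

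Collagen chain transcripts made up a large part of every library: 8.78 ± 0.405% of all normalized counts in the MLC libraries, 16.2 ± 1.01% in SMCs, 11.7 ± 0.120% in APCs and 13.8 ± 0.372% in FIPs (n = 4 each, SD). The 4 ranges did not overlap, with SMCs at the top and MLCs at the bottom. Per kilobase of transcript, Col3a1, Col1a1 and Col1a2 were the top 3 in every population, and together they were 76.0% of the collagen level in MLC libraries, 78.7% in SMCs, 68.9% in APCs and 76.4% in FIPs. Below them the order differed: Col15a1 had rank 5 in APCs and Col6a5 had rank 6 in MLCs. Fibrillar chains were 79.1% of the level per kilobase in MLC libraries, 82.7% in SMCs, 74.8% in APCs and 82.8% in FIPs. Basement membrane chains were 1.63% in MLC libraries, 1.92% in SMCs, 4.43% in APCs and 2.35% in FIPs, so their share was largest in APCs. This class holds type IV chains only. Col15a1 and Col18a1, collagens of basement membrane zones, were counted with the remaining chains, and the order of MLCs, SMCs and FIPs depends on that grouping. Fibril-associated chains were 3.12% in MLC libraries, 2.38% in SMCs, 1.27% in APCs and 2.52% in FIPs, where APCs were lowest. The remaining chains were 16.2% in MLC libraries, 12.9% in SMCs, 19.5% in APCs and 12.3% in FIPs.

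**Figure D1:**
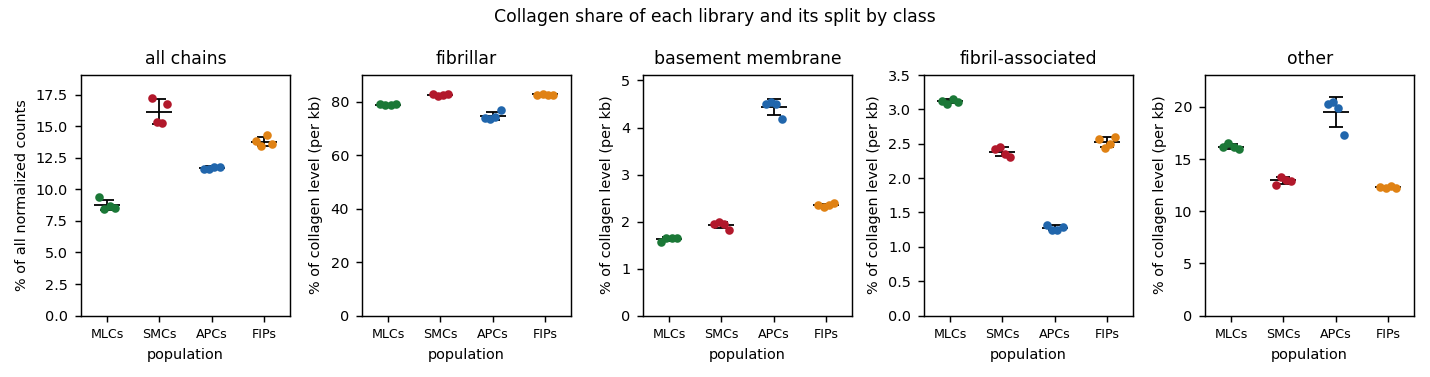
Collagen share of each library (left panel, % of all normalized counts) and the split of the collagen level per kilobase of transcript by class (other panels, %), with 1 point per library and bars for mean ± SD of 4 libraries. SMCs have the largest collagen share, 16.2 ± 1.01%, and APCs the largest basement membrane part, 4.43%.

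Of the 44 genes, 40 passed the filter of at least 10 normalized counts in at least 4 libraries, and 37 reached a population mean of 100. Among those 37, MLCs had the highest mean for 4 genes, SMCs for 20, APCs for 7 and FIPs for 6. Col6a4 is counted for SMCs at 40.8 per kilobase against 40.4 in MLCs, and its SMC mean rests on SMCs replicate 2. A gene was called when limma's Benjamini-Hochberg adjusted p was under 0.05 and the change at least 2-fold, and the share of all 15024 tested genes that was called is given beside each count. Among the 40 chain genes, 32 passed in MLCs against SMCs, with 3 up and 29 down, where 27.9% of all genes did (14.4% up and 13.5% down). In MLCs against APCs 9 rose and 17 fell, with 29.6% of all genes called (17.7% and 11.8%), and in MLCs against FIPs 7 rose and 14 fell, with 31.1% called (18.6% and 12.5%). SMCs had 17 chain genes higher and 2 lower than APCs (17.2% of all genes called, 13.5% and 3.79%), and 15 higher and 1 lower than FIPs (17.9% called, 13.3% and 4.6%). APCs against FIPs was the pair with the fewest, 8 higher and 2 lower, where 10.4% of all genes were called (5.22% and 5.2%). The median log2 fold change of the 40 genes was -1.49 in MLCs against SMCs, -0.65 against APCs and -0.74 against FIPs, and 0.61 in SMCs against APCs, 0.56 in SMCs against FIPs and -0.03 in APCs against FIPs. The median over all tested genes lay between -0.01 and 0.04. These pairs share their libraries and are not independent of each other.

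Some chain genes were called the same way in all 3 pairs of a population. SMCs had 12 such genes higher, where 2.75% of all genes were, namely Col4a3, Col4a4, Col7a1, Col8a1, Col9a1, Col11a1, Col12a1, Col13a1, Col16a1, Col24a1, Col25a1 and Col28a1. Among them, Col9a1 passed the filter only through its SMC libraries, so its place here is not independent of the filter. None of the 40 was lower in SMCs in all 3 pairs by limma (0.313% of all genes), edgeR or DESeq2, and 1, Col6a6, was at an unadjusted limma p under 0.05 with no fold limit. At so low a share, finding none among 40 does not set the chain genes apart from other genes. MLCs had 12 lower (7.89% of all genes), namely Col4a1, Col4a2, Col5a1, Col5a2, Col6a3, Col9a1, Col9a2, Col13a1, Col15a1, Col25a1, Col26a1 and Col27a1, and 3 higher (10.6%), namely Col4a6, Col6a5 and Col18a1. APCs had Col15a1 higher and Col14a1 lower (1.07% and 1.84%), and FIPs Col5a3 higher and Col24a1 lower (1.5% and 1.96%). The Col24a1 call in FIPs rests on values of 5.73 or less and was lost against MLCs and APCs with a pseudocount of 8 and against MLCs with quantile normalization. Both edgeR and DESeq2 also called Col8a1 lower in FIPs in all 3 pairs. From the MLC list of lower genes, Col9a1 and Col25a1 were lost with a pseudocount of 8. Col27a1 was lost there with libraries scaled to equal totals, quantile normalization or DESeq2. From the SMC list, Col13a1 was lost with a pseudocount of 8, equal totals or quantile normalization. Col4a4 was lost with equal totals, Col7a1 with quantile normalization and Col28a1 with DESeq2. Without APCs replicate 4 and SMCs replicate 3, the 2 shallowest libraries, 11 of the 12 SMC genes remained, all but Col13a1, and the MLC counts were again 12 and 3.

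**Figure D2:**
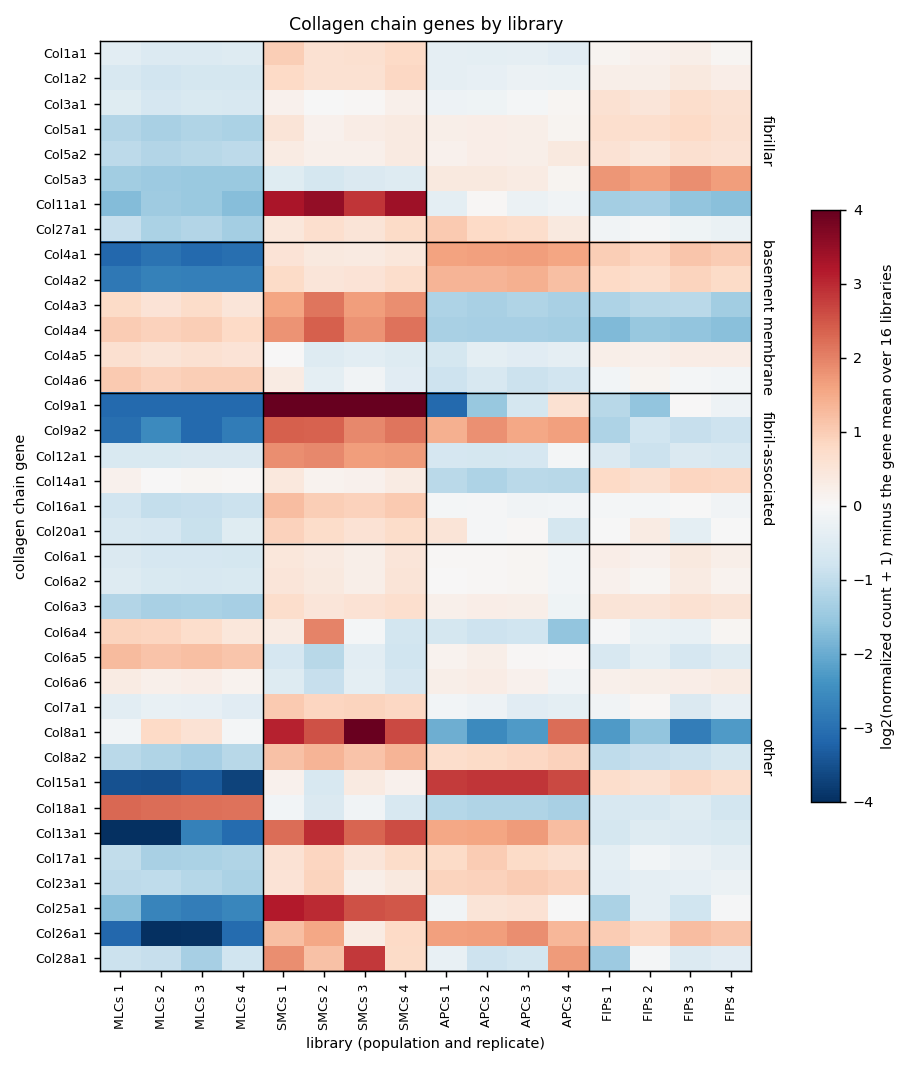
Level of the 37 chain genes with a population mean of at least 100, as log2(normalized count + 1) minus the gene's mean over 16 libraries (colour, clipped at 4), with libraries in columns by population and genes in rows by class. SMCs are red across most rows, MLCs are blue for Col4a1, Col4a2, Col15a1 and the membrane chains Col13a1 and Col25a1, and APCs replicate 4 departs from its population at Col8a1 and Col28a1.

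Among the fibrillar chains, the type I genes were highest in SMCs and the type III and V genes in FIPs. Col1a1, which codes for the chain that makes up most of type I collagen (GRCm38 chromosome 11, 94936224 to 94953042), had 428855, 393126, 396026 and 399059 in the MLC libraries, 1131748, 880579, 894455 and 1003595 in SMCs, 447484, 435630.2, 451614 and 418073 in APCs and 623538, 643993, 678974 and 602259 in FIPs. The SMC libraries lay above all others and the MLC and APC libraries overlapped. Col1a1 fell in MLCs against SMCs (log2 fold change -1.27 ± 0.15 SE, limma adjusted p = 4.56e-07) and rose in SMCs against APCs (1.15 ± 0.15, limma adjusted p = 3.14e-06). Its partner Col1a2 (chromosome 6, 4505618 to 4541543) had 229057, 210263, 219057 and 217540.1 in the MLC libraries, 624535, 547847, 537282 and 625162 in SMCs, 280073, 284519, 305073 and 294887 in APCs and 421868, 420033, 465687 and 425093 in FIPs. No 2 populations overlapped in Col1a2, but the difference of SMCs from APCs sat at the fold limit (log2 1.001) and was not called when SMCs replicate 1 or 4 or APCs replicate 1 or 2 was left out (0.97 to 0.99). Col3a1, the type III chain of pliable tissue (chromosome 1, 45311538 to 45349706), had 610058, 535899.8, 564837 and 551644 in the MLC libraries, 963755, 841043, 883590.0 and 992004 in SMCs, 749057, 764923, 809485 and 899555 in APCs and 1305151, 1192433, 1390904 and 1312898 in FIPs. FIPs were above all other libraries and SMCs overlapped APCs, and the called difference was MLCs lower than FIPs (-1.20 ± 0.17, limma adjusted p = 5.04e-06). With libraries scaled to equal totals the log2 fold changes of all genes shifted between some populations, and Col3a1 in MLCs against FIPs and Col1a2 in SMCs against APCs fell under the fold limit.

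Type V collagen starts and limits the growth of type I fibrils, and its 3 genes did not move as a block. Col5a1 (chromosome 2, 27886381 to 28039510) had 31470.3 to 34277 in the MLC libraries, 87358 to 108686 in SMCs, 82126 to 92018 in APCs and 119984 to 132824 in FIPs. Col5a2 (chromosome 1, 45374331 to 45503282) had 20948 to 23036 in the MLC libraries, 53950.0 to 60428 in SMCs, 52763 to 61400.0 in APCs and 64295 to 73819 in FIPs. For both genes MLCs were below and FIPs above every other library, SMCs and APCs overlapped, and MLCs were lower than each of the others, with log2 fold changes of -1.36 to -1.92. Col5a3, the third chain (chromosome 9, 20770050 to 20815117), had 6994, 6816, 6565 and 6659.7 in the MLC libraries, 13214, 11274, 12359.6 and 12871 in SMCs, 24465, 24133, 23266 and 20015 in APCs and 62704, 57866, 66761 and 58743 in FIPs. Its 4 populations were fully separated, with FIPs highest: against FIPs the log2 fold change was -3.18 ± 0.07 in MLCs, -2.31 ± 0.07 in SMCs and -1.42 ± 0.07 in APCs (SE, limma adjusted p at most 6.78e-12).

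The minor fibrillar chains had other patterns. Col11a1, a chain of the cartilage-type fibril (chromosome 3, 114030479 to 114220756), had 39.4, 49.05, 46.5 and 39.6 in the MLC libraries, 1293, 1530.5, 961 and 1408 in SMCs, 101, 136, 112 and 121 in APCs and 51.4, 51.8, 43.9 and 40.8 in FIPs. The SMC libraries were above all others, APCs lay above MLCs and FIPs, and MLCs and FIPs overlapped. SMCs exceeded APCs by 3.44 ± 0.15 on the log2 scale (SE, limma adjusted p = 5.67e-13) and FIPs by 4.74 ± 0.15. Col27a1, another minor fibrillar chain known from cartilage, was lowest in MLCs, with 754 to 1018 in the MLC libraries, 2658 to 3303 in SMCs, 2502 to 3977 in APCs and 1592 to 1825 in FIPs. Its call in MLCs against FIPs (log2 -1.01) was at the fold limit and was lost without MLCs replicate 2 or 4 or FIPs replicate 2, while without APCs replicate 4 it was called higher in APCs than in FIPs (1.01). Col24a1 was low everywhere, at 6.70 to 13.3 in the MLC libraries, 27.6 to 81.1 in SMCs, 6.43 to 25.9 in APCs and 1.85 to 5.73 in FIPs, and Col11a2 had a highest population mean of 89.7 and was called in no pair. Col2a1, the main cartilage chain, averaged 7.08 at most. A summed list of 6 cartilage markers was 125 to 137 in MLC libraries, 702 to 1211 in SMCs, 3088 to 3782 in APCs and 1232 to 1490 in FIPs. Sox9 made up most of it, Acan was at 15.5 or less, and Matn1 was at 0 in MLCs, APCs and FIPs.

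The basement membrane genes followed their genomic pairs. Col4a1 and Col4a2 code for the common type IV network and were highest in APCs. Col4a1 had 2368, 2704, 2379 and 2549 in the MLC libraries, 30213, 27313, 26705 and 28556 in SMCs, 63027, 64048, 66211 and 62602 in APCs and 41085, 37265, 44895 and 41747 in FIPs, with 4 separate ranges. Col4a2 had 2254, 2512, 2444 and 2461 in the MLC libraries, 27635, 22829, 23936 and 26199.9 in SMCs, 42128, 41815, 43555 and 37304 in APCs and 28269, 26335, 30253 and 27624 in FIPs, with SMCs overlapping FIPs. MLCs were lower than APCs, with -4.68 ± 0.07 for Col4a1 and -4.09 ± 0.07 for Col4a2 (log2 fold change ± SE, limma adjusted p = 5.93e-21 and 7.49e-20), and lower than SMCs, with -3.496 ± 0.07 and -3.38 ± 0.07. Among the other populations, Col4a1 was lower in SMCs than in APCs (-1.18 ± 0.07, limma adjusted p = 2.24e-11), a call that was lost with quantile normalization. Col4a2 stayed under the fold limit there (-0.71).

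Col4a3 and Col4a4 join with Col4a5 in the network best known from kidney glomerulus and were highest in SMCs, then in MLCs. Col4a3 had 1334, 1142, 1313 and 1092 in the MLC libraries, 2372, 3471, 2521 and 2858 in SMCs, 336, 316, 343 and 318 in APCs and 335, 364, 375 and 302 in FIPs. Col4a4 had 2504, 2353, 2497 and 2178 in the MLC libraries, 4380.1, 6573, 4375 and 5586 in SMCs, 505, 495, 499.7 and 484 in APCs and 365, 435, 415 and 393 in FIPs. For both genes SMCs were above MLCs and MLCs above the progenitors without overlap, and APCs and FIPs overlapped in Col4a3. SMCs exceeded APCs by 3.08 ± 0.10 and 3.37 ± 0.10 for Col4a3 and Col4a4 (log2 ± SE, limma adjusted p = 1.8e-14 and 4.91e-15), and MLCs exceeded APCs by 1.89 ± 0.10 and 2.26 ± 0.10. The fall of Col4a4 in MLCs against SMCs (-1.11) was lost without SMCs replicate 2, the highest library (-0.996). Exons of Col4a3 share 563 bases with a transcript on the other strand, C430014B12Rik, and the strand setting of the counting is not given in the sources used here, so its values are uncertain to that extent.

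Col4a5 and Col4a6 form the third network, known from smooth muscle and epithelial basement membranes, and were highest in MLCs. Col4a5 had 14689, 13506, 14350.2 and 13846 in the MLC libraries, 9667, 6606, 7082 and 6663 in SMCs, 5883, 7306, 6859 and 7442 in APCs and 11098, 10974, 11535 and 11538 in FIPs. Col4a6 had 8557, 7929.7, 8200.3 and 8222 in the MLC libraries, 5222, 3130.3, 3773 and 3022 in SMCs, 2312, 2633, 2297 and 2417 in APCs and 3814, 4504, 3921 and 3864 in FIPs. MLCs were above every other library in both genes, and the SMC range held all 4 FIP libraries for Col4a6. Col4a6 rose in MLCs against SMCs by 1.15 ± 0.12, against APCs by 1.77 ± 0.12 and against FIPs by 1.03 ± 0.12 (log2 ± SE, limma adjusted p = 5.21e-08, 6.61e-11 and 1.92e-07), the last not called by edgeR on recovered reads. Col4a5 was called higher in MLCs than in APCs (1.04, and 0.97 and not called without APCs replicate 1), and was 0.93 against SMCs, under the limit (1.055 and called without SMCs replicate 1).

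**Figure D3:**
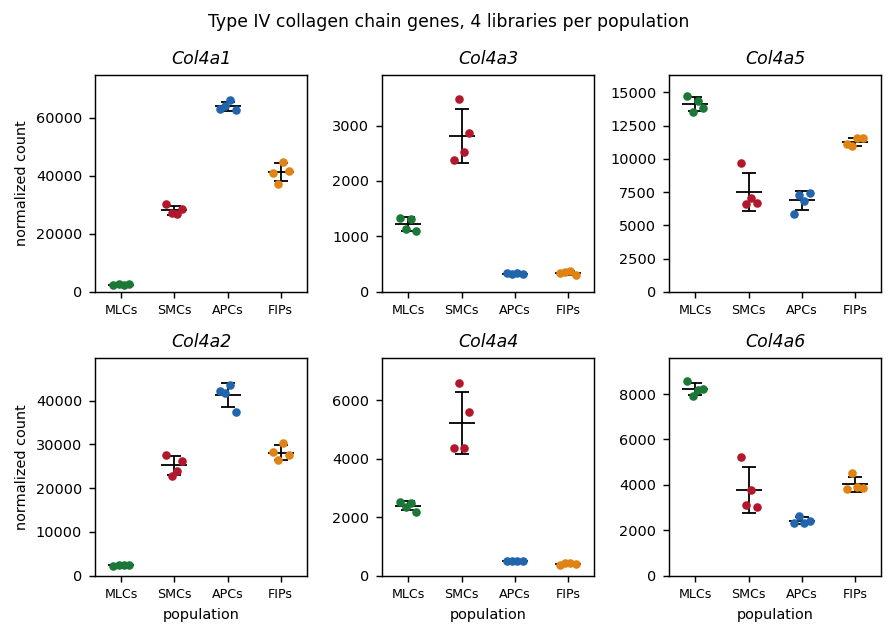
Normalized counts of the 6 type IV chain genes (vertical axes) in each population (horizontal axes), with 1 point per library and bars for mean ± SD of 4 libraries; each column of panels is a head-to-head pair. Col4a1 and Col4a2 peak in APCs, Col4a3 and Col4a4 in SMCs, and Col4a5 and Col4a6 in MLCs.

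Of the 7 fibril-associated chains tested, 3 were higher in SMCs in all 3 pairs (Col9a1, Col12a1 and Col16a1), against 2.75% of all genes. Col9a1 passed the filter only through its SMC libraries, so its place in this count is not independent of the filter. Col9a1, a type IX chain that decorates cartilage-type fibrils (chromosome 1, 24177589 to 24252738), had 278, 302, 171 and 365 in SMCs, 0 to 12.1 in APCs and 1.85 to 7.64 in FIPs, and was listed at 0 in all 4 MLC libraries. Its calls in MLCs against APCs and FIPs rest on values of 12.1 or less and were lost with a pseudocount of 8. By population mean, SMCs were about 113-fold or more above MLCs if 3 counts per library is assumed as the upper limit for a count of 0. The figure depends on that assumed limit. Against APCs the log2 fold change was 6.15 ± 0.58 (SE, limma adjusted p = 3.9e-08), and 6.75 without APCs replicate 4 and 5.51 without APCs replicate 1. Its partner Col9a2 (chromosome 4, 121039566 to 121055325) had 15.1, 21.1, 14.01 and 17.6 in the MLC libraries, 677, 665, 493 and 577 in SMCs, 346, 462, 377 and 405 in APCs and 54.4, 73.04, 67.8 and 72.5 in FIPs. Its 4 ranges were separate, and APCs, which were near 0 for Col9a1, exceeded FIPs in Col9a2 by 2.55 ± 0.15 (log2 ± SE, limma adjusted p = 6.32e-11). The third type IX gene, Col9a3, averaged at most 48.4 and shares 234 exon bases with Tcfl5 on the other strand.

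Col12a1 and Col14a1 code for the related type XII and XIV chains of the fibril surface and had different patterns. Col12a1 (chromosome 9, 79598987 to 79721141) had 3329, 3378, 3389 and 3450.0 in the MLC libraries, 18550.1, 19481, 16316 and 16725 in SMCs, 3235, 3118, 3183 and 4850.4 in APCs and 3436, 2792, 3428 and 3258 in FIPs. SMCs exceeded every other library, FIPs overlapped both MLCs and APCs, and APCs replicate 4 was above the rest of these 3 populations. A sum of 4 tendon markers was 267 to 282 in MLC libraries, 199 to 343 in SMCs, 72.5 to 123 in APCs and 22.8 to 30.8 in FIPs. The log2 fold change of SMCs was 2.33 ± 0.11 against APCs and 2.46 ± 0.11 against FIPs, and MLCs were at -2.39 ± 0.11 against SMCs (SE, limma adjusted p = 2.03e-12, 5.8e-13 and 2.91e-13). Col14a1 (chromosome 15, 55307644 to 55520803) had 52275, 46564, 49338 and 47715 in the MLC libraries, 62288, 50607, 51994 and 57764 in SMCs, 21754, 19846, 22033 and 21634 in APCs and 80283, 72156, 84613 and 81320.2 in FIPs. Here APCs were lowest and FIPs highest with no overlap with the rest, and MLCs overlapped SMCs. APCs stood at -1.90 ± 0.08 against FIPs, and MLCs and SMCs exceeded APCs by 1.20 ± 0.08 and 1.38 ± 0.08 (log2 ± SE, limma adjusted p = 6.24e-13, 5.94e-11 and 3.47e-11). Col16a1, which binds fibrils and integrins, had 3557 to 4078 in the MLC libraries, 13160.3 to 16303 in SMCs, 6302 to 6792 in APCs and 6345 to 6839 in FIPs. SMCs stood above all, by 1.14 over APCs and 1.12 over FIPs on the log2 scale. Col20a1 was at 93.7 to 122 in the MLC libraries, 258 to 329.6 in SMCs, 105 to 250.2 in APCs and 131 to 217 in FIPs and was called in MLCs against SMCs alone (-1.41).

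Of the type VI filament chains, Col6a1, Col6a2 and Col6a3 were lowest in MLCs, and Col6a5 was highest there. Col6a1 (chromosome 10, 76708792 to 76726044) had 41232 to 45188 in the MLC libraries, 78530.2 to 93172 in SMCs, 62201 to 70499 in APCs and 74990.2 to 88284 in FIPs. Col6a2 (chromosome 10, 76595756 to 76623630) had 58908 to 64187 in the MLC libraries, 107429.8 to 130782 in SMCs, 85401 to 96564 in APCs and 96393 to 115529 in FIPs. Both were called in MLCs against SMCs alone, near the fold limit (-1.04 and -1.01), and the Col6a2 call was lost without MLCs replicate 2 or 3 or SMCs replicate 1 or 4. Equal totals and quantile normalization each ended both calls. Col6a3, the long chain that joins them (chromosome 1, 90766860 to 90844001), had 32015, 29336, 30145 and 28920.5 in the MLC libraries, 117925, 100599.9, 108092 and 115381 in SMCs, 84379, 87085, 84532 and 63885 in APCs and 104050.0, 102430.5, 111201 and 104631 in FIPs. MLC libraries were the lowest, APCs replicate 4 was the lowest of its population, and MLCs stood at -1.87 ± 0.10 against SMCs, -1.40 ± 0.10 against APCs and -1.81 ± 0.10 against FIPs (log2 ± SE, limma adjusted p at most 1e-10).

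Col6a5, Col6a6 and Col6a4 resemble Col6a3 and lie next to each other on chromosome 9. Col6a5 (105856070 to 105962463) had 75349.7, 69299.9, 72912 and 68305 in the MLC libraries, 19513, 14603, 23445 and 17988 in SMCs, 34216, 36937, 32581 and 31950.2 in APCs and 19921, 24126, 19791 and 22006 in FIPs. MLCs were above all others and APCs above SMCs and FIPs, which overlapped, and MLCs rose by 1.94 ± 0.11 against SMCs, 1.08 ± 0.11 against APCs and 1.74 ± 0.11 against FIPs (log2 ± SE, limma adjusted p = 5.94e-12, 3.31e-08 and 2.03e-11). Col6a6 had 23756 to 27332 in the MLC libraries, 11443 to 16604 in SMCs, 19642 to 26561 in APCs and 25190.1 to 27194 in FIPs, and it was called in no pair. Col6a4 was near the floor of description at 246 to 328 in the MLC libraries, 105 to 708 in SMCs, 58.8 to 109.9 in APCs and 145 to 187 in FIPs, where SMCs replicate 2 was far above the other SMC libraries. Its call in SMCs against APCs (1.34) was lost without that library (0.80).

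Col15a1 and Col18a1 code for the multiplexins, collagens of basement membrane zones whose ends release endostatin-type fragments, and they were highest in different populations. Col15a1 (chromosome 4, 47207655 to 47313167) had 1474, 1444, 1587 and 1250.1 in the MLC libraries, 18347, 10553, 21173 and 18405 in SMCs, 112855, 117782, 119318 and 101349 in APCs and 26915, 24743, 29045 and 26722 in FIPs. The 4 ranges were separate. A sum of 5 mature adipocyte markers was 207 to 236 in MLC libraries, 251 to 521 in SMCs, 1997 to 2508 in APCs and 128 to 163 in FIPs. It was also highest in APCs. Against APCs the log2 fold change was -6.29 ± 0.15 in MLCs and -2.76 ± 0.15 in SMCs, and APCs rose against FIPs by 2.07 ± 0.15 (log2 ± SE, limma adjusted p = 5.93e-18, 1.07e-11 and 9.31e-10). Col18a1 (chromosome 10, 77052178 to 77166530) had 30136, 28598, 28028 and 27591 in the MLC libraries, 5714, 4057, 5540.4 and 3905 in SMCs, 2749, 2663, 2649 and 2469 in APCs and 3926, 3892, 4279 and 3646 in FIPs. MLCs were above every other library and APCs below, and MLCs rose by 2.59 ± 0.10 against SMCs, 3.44 ± 0.10 against APCs and 2.86 ± 0.10 against FIPs (limma adjusted p = 1.65e-14, 1.13e-16 and 1.86e-15). The mesothelial marker sum in SMCs, 10558 to 16132, was above that of both progenitors, and the SMC libraries with the highest Col18a1, replicates 1 and 3, also held the highest mesothelial sums of their population, 13925 and 16132. Any link of Col18a1 to that sum was not tested. In SMCs, Col18a1 was not called against APCs (0.85) or FIPs (0.27).

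**Figure D4:**
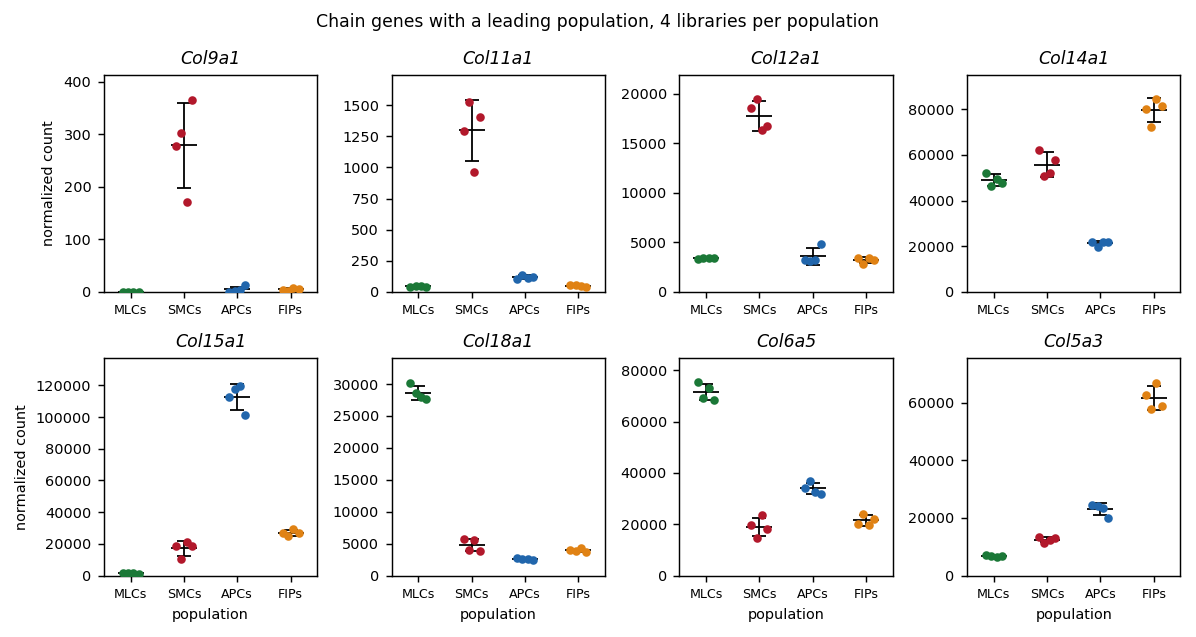
Normalized counts (vertical axes) of 8 chain genes in each population (horizontal axes), with 1 point per library and bars for mean ± SD of 4 libraries. SMCs lead in Col9a1, Col11a1 and Col12a1, FIPs in Col14a1 and Col5a3, APCs in Col15a1, and MLCs in Col18a1 and Col6a5.

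The network and anchoring chains were highest in SMCs. Col8a1 codes for a short chain of vessel and corneal networks (chromosome 16, 57624256 to 57754737) and had 47.8, 89.6, 78.2 and 49.3 in the MLC libraries, 447, 305, 818 and 324 in SMCs, 12.7, 8.06, 10.01 and 246 in APCs and 9.89, 16.6, 6.68 and 9.98 in FIPs. APCs replicate 4 had 246 where the other APC libraries had 8.06 to 12.7, and SMCs were above every other library. SMCs exceeded APCs by 4.18 ± 0.71 (log2 ± SE, limma adjusted p = 6.03e-05) and by 5.30 without APCs replicate 4, and MLCs were not called against APCs (1.43, limma adjusted p = 0.0819) but were without that library (2.55). The contractile sum was 8093 in APCs replicate 4 and 5339 to 5826 in the others. Col8a2, its partner, had 539.9 to 634 in the MLC libraries, 2972 to 3489 in SMCs, 2187 to 2540.2 in APCs and 663 to 823 in FIPs in 4 separate ranges. SMCs stood at 0.46 against APCs, under the fold limit, and APCs exceeded FIPs by 1.68 ± 0.08 (log2 ± SE, limma adjusted p = 1.52e-12). Col7a1, the anchoring fibril chain beneath epithelia, was at 132 to 148 in the MLC libraries, 324 to 379 in SMCs, 133 to 169.9 in APCs and 123 to 188 in FIPs, and SMCs were above the others by 1.15 to 1.18 against the progenitors.

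The transmembrane chains are collagens anchored in the cell surface, and they were lowest in MLCs. Col13a1, which is known from the neuromuscular junction, was the only gene of the 40 called in all 6 pairs, with 0.838, 0.846, 3.69 and 2.64 in the MLC libraries, 143, 234, 152 and 183 in SMCs, 88.7, 90.6, 98.7 and 70.9 in APCs and 17.8, 20.3, 20.05 and 19.04 in FIPs. No ranges overlapped, but SMCs against APCs was at the fold limit (1.003) and was lost without SMCs replicate 2 or 4 or APCs replicate 4 (0.86 to 0.98). Col25a1, found in neurons and muscle, had 4.19, 1.69, 1.48 and 1.76 in the MLC libraries, 151, 132, 98.2 and 94.01 in SMCs, 14.4, 23.2, 24.3 and 15.6 in APCs and 5.94, 12.02, 8.59 and 15.4 in FIPs. SMCs were above all others, by 2.56 ± 0.33 over APCs and 3.43 ± 0.33 over FIPs (log2 ± SE, limma adjusted p = 2.19e-06 and 3.98e-08). Col17a1, the hemidesmosome chain of skin, was at 47.4 to 58.6 in the MLC libraries, 164 to 215 in SMCs, 185 to 241 in APCs and 90.03 to 109 in FIPs, and Col23a1 at 110.0 to 133 in the MLC libraries, 312 to 493 in SMCs, 500.4 to 535 in APCs and 198 to 227 in FIPs. APCs were called above FIPs in both (1.07 and 1.28), the first not by edgeR or DESeq2, not with quantile normalization and not without APCs replicate 2 (0.998).

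The remaining chains were Col26a1 and Col28a1. Col26a1 was at 0.846 to 3.52 in the MLC libraries, 46.97 to 112 in SMCs, 95.1 to 139 in APCs and 67.5 to 88.8 in FIPs, so the MLC libraries were below every other library, and MLCs stood at -5.27 ± 0.29 against APCs (log2 ± SE, limma adjusted p = 3.58e-12). Col28a1, known from peripheral nerve, had 16.8, 16.1, 11.8 and 17.6 in the MLC libraries, 117, 72.6, 231 and 54.2 in SMCs, 25.4, 17.1, 18.6 and 105 in APCs and 10.9, 29.6, 21.00 and 22.7 in FIPs. SMCs varied widely among themselves, APCs replicate 4 was inside their range, and SMCs exceeded APCs by 1.70 ± 0.49 (limma adjusted p = 0.00639, not called by DESeq2). A summed list of 5 Schwann cell markers was 3274 to 3422 in MLC libraries, 416 to 639 in SMCs, 60.05 to 71.5 in APCs and 64.3 to 94.3 in FIPs. Mbp made up most of it in MLCs, and Sox10 averaged 1.77 in MLC libraries, 29.95 in SMCs, 0.252 in APCs and 0.462 in FIPs. The 4 genes below the filter, Col2a1, Col10a1, Col19a1 and Col22a1, had highest population means of 0.947 to 8.04 and were not tested.

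Chains that share a collagen molecule were also compared as ratios of levels per kilobase, which a library's scaling factor does not change. The test used log2(value + 1) of the first chain minus that of the second, where the added 1 lets the scaling factor matter for low genes. That difference varied among the 4 populations in all 7 pairs (adjusted p at most 0.0107 over the 7 pairs). The p-values are from an exact permutation test of the between-population sum of squares over 2627625 assignments. Which populations differ was not tested. Col4a1 to Col4a2 was 1.01 ± 0.0426 in the MLC libraries, 1.10 ± 0.0485 in SMCs, 1.52 ± 0.0804 in APCs and 1.43 ± 0.0403 in FIPs (n = 4 each, SD; exact permutation adjusted p = 5.33e-06). MLCs and SMCs were below the progenitors with no overlap. Col1a1 to Col1a2, which make type I collagen together in unequal numbers, was 1.66 ± 0.0277 in the MLC libraries, 1.51 ± 0.0876 in SMCs, 1.36 ± 0.0689 in APCs and 1.33 ± 0.0436 in FIPs (exact permutation adjusted p = 7.13e-05). It was highest in MLCs, with only the top SMC library reaching the MLC range, and overlapped between APCs and FIPs. Col4a5 to Col4a6 was 1.74 ± 0.0283 in the MLC libraries, 2.05 ± 0.177 in SMCs, 2.89 ± 0.242 in APCs and 2.87 ± 0.261 in FIPs (exact permutation adjusted p = 4.88e-05), with MLCs below all others. Col6a3 to Col6a1 was 0.288 ± 0.00378 in the MLC libraries, 0.514 ± 0.0355 in SMCs, 0.480 ± 0.0436 in APCs and 0.532 ± 0.0180 in FIPs (exact permutation adjusted p = 0.000403), and the MLC ratio was below every other library. Col6a1 to Col6a2 was 0.674 ± 0.00814 in the MLC libraries, 0.690 ± 0.00997 in SMCs, 0.704 ± 0.00313 in APCs and 0.746 ± 0.00966 in FIPs (exact permutation adjusted p = 1.07e-05). Col5a1 to Col5a2 was 1.17 ± 0.0325 in the MLC libraries, 1.34 ± 0.0776 in SMCs, 1.24 ± 0.129 in APCs and 1.41 ± 0.0640 in FIPs (exact permutation adjusted p = 0.0107). Col8a1 to Col8a2 averaged 0.0959 in MLC libraries, 0.128 in SMCs, 0.0234 in APCs and 0.0126 in FIPs (exact permutation adjusted p = 0.00447). APCs replicate 4, at 0.0820, set the APC mean: the other APC libraries were at 0.00298 to 0.00492 (mean 0.00382), below every FIP library, the lowest of which was at 0.00767.

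**Figure D5:**
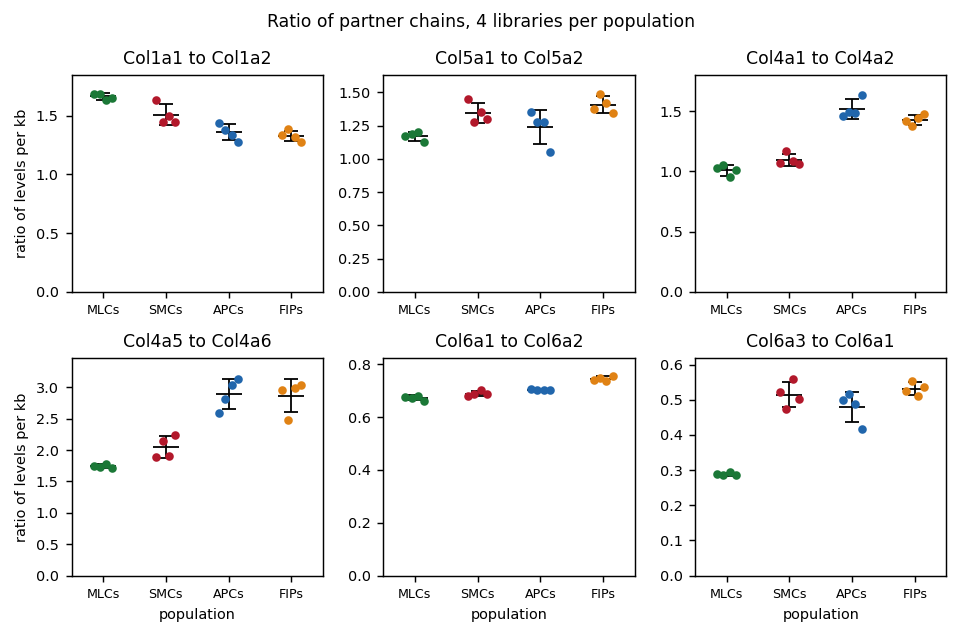
Ratio of levels per kilobase of transcript between partner chains (vertical axes) in each population (horizontal axes), with 1 point per library and bars for mean ± SD of 4 libraries. The Col6a3 to Col6a1 and Col4a5 to Col4a6 ratios are lowest in MLCs, and Col4a1 to Col4a2 is 1.01 in MLCs against 1.52 in APCs.

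The genes that modify, export, trim and bind collagen were counted for the same pairs. Of 20 chain modification and folding genes, MLCs had 1 higher and 7 lower against SMCs, 1 and 6 against APCs, and 1 and 5 against FIPs. With libraries scaled to equal totals, the lower calls of P3h3 and Plod2 against FIPs were lost (-0.92 and -0.89). The shares of all tested genes higher and lower in MLCs were 14.4% and 13.5% against SMCs, 17.7% and 11.8% against APCs, and 18.6% and 12.5% against FIPs, and they apply to the next lists too. P3h4, a partner of lysyl hydroxylase, was the gene higher in each pair, at 4292 ± 34.8 in the MLC libraries, 1848 ± 164 in SMCs, 1904 ± 119.8 in APCs and 1547 ± 63.1 in FIPs (n = 4 each, SD). P4ha2, a prolyl hydroxylase subunit, was lower, at 648 ± 43.4 in the MLC libraries, 2928 ± 126 in SMCs, 2175 ± 38.2 in APCs and 3340.3 ± 224 in FIPs, with log2 fold changes of -2.18, -1.75 and -2.36. Serpinh1, a chaperone of procollagen, was not called in any pair, at 30217 in MLC libraries, 25691 in SMCs, 25867 in APCs and 30267 in FIPs. In the same list P4ha3 was the gene higher in SMCs than in APCs (3.08, and 3.85 without APCs replicate 4). That library had 50.1 where the other APC libraries had 4.23 to 6.43. Colgalt2, a galactosyltransferase for hydroxylysine, was the gene lower in SMCs than in APCs (-3.005). P3h2, a prolyl hydroxylase, and Colgalt2 were the 2 higher in APCs than in FIPs (3.04 and 1.23). Of all tested genes, 13.5% were higher and 3.79% lower in SMCs against APCs, and 5.22% were higher in APCs against FIPs. Of the 7 export genes, 6 were tested, and all 6 stayed under the fold limit in each pair, between -0.91 for Mia3, the receptor that loads collagen for transport, in MLCs against FIPs and 0.48 for the transcription factor gene Creb3l1 in MLCs against APCs.

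Propeptide processing genes differed in both directions in MLCs, with 2 of 7 higher and 4 lower against SMCs, 1 and 4 against APCs, and 2 and 3 against FIPs, with the shares of all genes as above. The lower call of Pcolce against SMCs was lost without SMCs replicate 4 (-0.98) and with libraries scaled to equal totals (-0.93). Adamts14, which trims the start of fibrillar chains, was at 76.02 ± 11.1 in the MLC libraries, 1434 ± 90.4 in SMCs, 1916 ± 424 in APCs and 3453 ± 241 in FIPs, and Tll1, which trims their ends, rose in MLCs by 1.71 to 2.53 on the log2 scale. Pcolce2, an enhancer of that trimming, was the gene higher in SMCs than in APCs and the gene lower in APCs than in FIPs, with 6.70, 7.61, 14.01 and 6.16 in the MLC libraries, 532, 645, 747 and 728 in SMCs, 54.9, 66.5, 84.4 and 98.6 in APCs and 1012, 901, 1259 and 1182 in FIPs. Of all tested genes, 13.5% were higher in SMCs than in APCs and 5.2% lower in APCs than in FIPs. Of the 10 receptor and uptake genes, 8 were tested, and in MLCs 2 were higher in each pair, Ddr1, a collagen-binding kinase, and Itga10, an integrin chain. Those lower in MLCs numbered 3 against SMCs, 2 against APCs and 4 against FIPs. For all genes the shares were 14.4% to 18.6% higher and 11.8% to 13.5% lower. Itga11, an integrin chain for fibrillar collagen, was at 24.6 ± 4.58 in the MLC libraries, 1450.0 ± 142 in SMCs, 1169 ± 55.1 in APCs and 3443 ± 114 in FIPs, and Mrc2, an uptake receptor for collagen, at 1038 ± 65.3 in the MLC libraries, 10954 ± 755 in SMCs, 12003 ± 1185 in APCs and 12035 ± 658 in FIPs. Both were below every other library in MLCs, with log2 fold changes of -7.09 and -3.53 against FIPs.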

How the data were processed

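RNA of 16 libraries was read from the deposited table, which holds a normalized signal per gene, read counts that the authors divided by 1 factor per library, as in DESeq2. Tools listed, with no role, in the submitters' processing notes are featureCounts 1.4.6, HISAT2 2.0.1, Trim Galore 0.4.1 and DESeq2 1.6.3, with the mouse build GRCm38 (mm10). How strand and multiply mapped reads were handled is not given in the sources used here. Columns headed SMLCs were taken as SMCs, by number. Whole reads were recovered within 0.01 for 100% of values; edgeR's count test on those of 14 libraries called 4259, 4396, 4700, 2442, 2747 and 1499 genes in the 6 pairs in the order of the report (MLCs against SMCs, APCs and FIPs, SMCs against APCs and FIPs, APCs against FIPs). No 2 of those 14 libraries from one population agreed within counting noise; APCs replicate 2 and FIPs replicate 1 were not compared in this way.

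The test was limma 3.58.1 (R 4.3.3, trend) on log2(value + 1) of genes at 10 or more in 4 libraries, in 1 model of all libraries, two-sided, with Benjamini-Hochberg adjustment over all 15024 genes; values after ± are SDs unless SE is written, and the added 1 shrinks the fold changes of low genes. The fit was tested on simulated data with the same spread for every gene, changes in better expressed genes only and no odd library. That test does not cover calls of low genes or calls that depend on a single library. Alternatives were pseudocounts of 0.1 and 8, no filter, equal totals, quantile normalization, edgeR 4.0.16, DESeq2 1.42.0, 2 populations at a time, a replicate block, and leaving out libraries; the counts over all 3 pairs of a population and the processing and receptor genes were added to the alternatives after the data were seen. Levels per kilobase used the GENCODE M21 transcript with the longest coding sequence, and coordinates are RefSeq GRCm38 gene spans. Chain genes with a mean of 100 in any population are described, those that carry the results with every library and the rest by range; the other genes came from lists of collagen processing genes and receptors and of cell type markers. The chain genes and lists were chosen with earlier results of these data known.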

Additional observations from a re-analysis of the deposited data

Results flagged for a closer look

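In 11 of 148 sets of 4 libraries (37 chain genes in 4 populations) the highest or lowest library was separated from the nearest other by a part of the set's range above Dixon's critical value; chance gives about 1 in 20. APCs replicate 4 accounted for 4 of them: Col8a1 (0.981 of the range; 246 against 8.06 to 12.7 in the others), Col12a1 (0.932; 4850.4 against 3118 to 3235), Col28a1 (0.907; 105 against 17.1 to 25.4) and, on the low side, Col6a3 (0.883; 63885 against 84379 to 87085). MLCs replicate 1 was highest in Col25a1 (0.895; 4.19 against 1.48 to 1.76), Col6a1 (0.879; 45188 against 41232 to 41709) and Col1a1 (0.834; 428855 against 393126 to 399059). FIPs replicate 3 was highest in Col1a2 (0.889; 465687 against 420033 to 425093) and Col5a1 (0.842; 132824 against 119984 to 122015). FIPs replicate 2 was highest in Col4a6 (0.845; 4504 against 3814 to 3921), and SMCs replicate 1 in Col4a5 (0.845; 9667 against 6606 to 7082).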

How the results depend on the processing

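The counts of called chain genes in the 6 pairs, and those over all 3 pairs of a population, stayed within 1.5 times their values under every alternative run, except that the 1 gene lower in FIPs in all 3 pairs (Col24a1) became 0 with a pseudocount of 8 or quantile normalization and 2 with edgeR or DESeq2, which added Col8a1. No chain gene call changed sign. Leaving out single libraries kept between 121 and 124 of the 124 calls. Of these calls, 124 were kept with a pseudocount of 0.1, with no filter, with 2 populations at a time and with the replicate block. With edgeR 121 were kept and with DESeq2 120 (14 libraries each), 117 with a pseudocount of 8 or equal totals, and 108 with quantile normalization. Quantile normalization gives the top ranks the same value in every library by construction. The 16 calls lost with it were all those of Col1a1, Col1a2 and Col3a1 and some of other genes, among them Col4a1, Col9a3 and Col13a1. Why each was lost was not tested. Calls in MLCs against SMCs ranged from 29 to 33, against APCs from 24 to 28 and against FIPs from 18 to 23; in SMCs against APCs from 15 to 20 and against FIPs from 15 to 18; in APCs against FIPs from 9 to 12. Genes higher in SMCs in all 3 pairs numbered 10 to 13, and genes lower and higher in MLCs 10 to 13 and 2 to 3. Equal totals shifted the log2 median over all genes by 0.24 in APCs against FIPs, 0.33 in MLCs against FIPs, 0.11 in MLCs against SMCs and 0.22 in SMCs against FIPs, and brought the higher calls to 67.5% in APCs against FIPs (from 50.1%) and 71.4% in MLCs against FIPs (from 59.8%); quantile normalization moved it to 55.5% in SMCs against APCs (from 78.0%) and 54.4% in SMCs against FIPs (from 74.3%). All 7 ratio tests stayed under 0.05. Among the collagen processing and receptor genes, calls of P3h3 and Plod2 in MLCs against FIPs were lost with equal totals. Pcolce in MLCs against SMCs was lost with equal totals or without SMCs replicate 4. Ddr2 in APCs against FIPs was lost with equal totals or quantile normalization. Itga2 in SMCs against FIPs was lost with equal totals, with DESeq2 and without some single libraries. The labels tie no libraries together by number. Same-numbered libraries correlated at -0.03 to 0.17 (median 0.06, against -0.02 for other numbers), with 6 of 24 pairs over 0.1 and 8 of 16 libraries closest to their own number, which is a hint from the data and under the bar set for a pairing, and the block left each count as it was, for example 32 calls in MLCs against SMCs. Values under about 10 rest on few reads, and their counting error is large.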
